A study of Mus musculus with 4 samples.

Results

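Genes of 4 growth factor systems, those of FGF, EGF, PDGF and HGF, together with the vascular growth factor gene Vegfa, were read in newborn mouse ureters and in whole newborn mice. The set was defined by name and held 37 genes for ligands, receptor tyrosine kinases and feedback inhibitors. All probe sets annotated to exactly 1 of these symbols were taken, which gave 87 of the 45037 non-control probe sets and 36 of 18193 genes. The signal of Areg, the amphiregulin gene, was not analysed here, and this gene enters only the promoter counts. Affymetrix MOE430 arrays had been hybridized with 3 samples of ureter and 1 reference sample. Each ureter sample was whole ureter from FVB/N males at postnatal day 1 (Theiler stage 27) carrying the SMGA/EGFP transgene (SMGA standing for Actg2, the smooth muscle gamma-actin gene, in the series title), was freed of kidney and bladder, and was not pooled. The reference was a pool of whole FVB/N animals of the same age and of both sexes, with no transgene named, and served as a common standard for comparing arrays. Tissue, transgene, sex and pooling therefore change together between the groups and cannot be told apart. Since the labels do not state whether the ureters of the 3 samples were taken from different animals, p-values reflect the spread among these samples and no more, and that spread may be technical. All 4 RNA samples were amplified in 2 rounds. The comparison asks which growth factor genes give more or less signal in ureter than in whole newborns.

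These growth factors act over short distances between epithelium and mesenchyme. A ligand binds a receptor tyrosine kinase on the neighbouring cell, the receptor activates the Ras-MAPK and PI3K relays, and the relay in turn raises inhibitors such as the Sprouty and Spred proteins and the phosphatase Dusp6, which damp the signal. FGF7 and FGF10 are made by mesenchyme and act on the epithelial form of FGFR2. PDGFs are dimers: PDGF-A and PDGF-C act on PDGFRA of mesenchymal cells, and PDGF-D acts mainly on PDGFRB of smooth muscle and vessel wall cells. HGF from mesenchyme acts on its receptor Met on epithelium. EGF-family ligands are cut from the cell surface and act on the ErbB receptors, which the urothelium of the bladder and ureter uses in growth and repair.

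Values below are deposited intensities after quantile normalization, called normalized intensities, and levels are compared between arrays within a probe set. Sums over marker genes are the exception, and bright probe sets weigh most in them. Differences are log2 ureter minus reference, from the mean of n = 3 ureters, with the standard error (SE) and adjusted p of limma. The reference had 1 array and was taken to vary like the ureters. A call means limma's adjusted p under 0.05 over the 27022 probe sets tested. For each gene the brightest tested probe set stands for it unless another is named. The background level of an array is the highest signal among 27 probe sets for bacterial transcripts, and stood at 94.2, 188 and 134 in ureters 1, 2 and 3 and 127 in the reference. In bulk samples fewer cells of a type and less RNA per cell cannot be told apart.

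The ureter label was checked against marker genes, and all 16 urothelial, all 12 smooth muscle and all 11 mesenchymal markers lay above background in the 3 ureters. Of these, 11, 10 and 6 were called higher than in the reference and none lower. Of 13 measured nephron markers none was called, but their summed normalized intensity was 4472, 25440 and 17400 in ureters 1, 2 and 3, against 15200 in the reference. Nephron transcripts thus differed between the ureter samples. Umod of the thick ascending limb read 55.6, 2019 and 961 in ureters 1, 2 and 3, the first of these below background. Of the 13 markers 10 were lowest in ureter 1 and 2 were highest there. Collecting duct markers ran otherwise, with sums of 18900, 12210 and 16160 over 7 genes against 5778 in the reference. Of 5 tested, 2 were called higher and 0 lower. The ratio of 3′ to 5′ signal of beta-actin, a sign of RNA length, was 4.89, 2.88 and 3.56 in ureters 1, 2 and 3 and 3.27 in the reference. That of Gapdh was much higher, at 16.6, 21.6 and 21 in the ureters and 19.8 in the reference. Among the ureters, ureter 1 thus had the highest ratio for beta-actin and the lowest for Gapdh. Probe sets over 2-fold apart between ureters numbered from 3806 for ureters 1 and 3 to 5914 for ureters 1 and 2.

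Of the 36 genes, 30 had a tested probe set and 6 (Fgf2, Fgf8, Fgf18, Fgf20, Nrg1 and Erbb4) had none bright enough to test. Called higher in the ureters were 3 genes, Fgf7, Pdgfc and Pdgfd, and called lower were 0, whereas 27 were not called. Over all 13721 genes, 2.94% were called higher and 4.77% lower. At an unadjusted p under 0.05, limma put 5 of the genes higher and 2 lower, the further ones being Spry2 and Pdgfra on the higher side and Errfi1 and Ereg on the lower. Over all genes 13.8% were higher and 12.5% lower at that unadjusted threshold. The median log2 difference of the 30 genes was 0.34, beside 0.10 over all genes. In 12 of the 30 all 3 ureters lay above the reference, a share of 40% where all genes gave 39.9%, and in 5 all lay below it, 16.7% where all genes gave 30.7%. The estimate differed by less than 1 on the log2 scale in 76.7% of the 30 genes and in 70.8% of all genes. A small estimate does not place a gene at its whole-body level, as intervals were wide (Fgf1, 95% interval -1.01 to 2.16). Estimates also moved with the scaling: with median-centred arrays Fgfr2 was at 1.28 and Fgf13 at -0.71, beside 0.44 and -1.40 as reported.

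**Figure D1:**
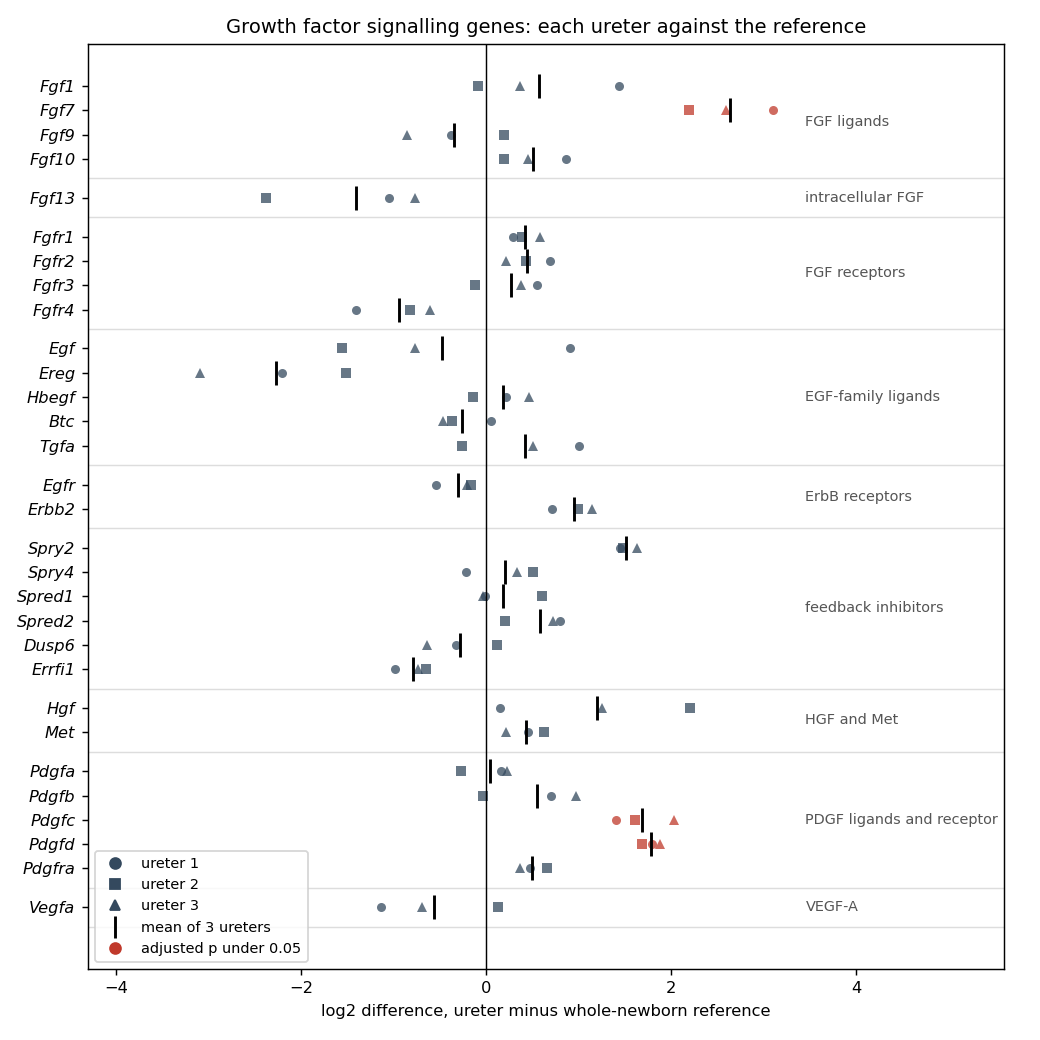
Log2 difference of each ureter from the whole-newborn reference (x axis) for the 30 tested genes (y axis, grouped by role), each gene at its brightest probe set, with the mean of the 3 ureters as a vertical bar. Red symbols mark the 3 genes with an adjusted p under 0.05, Fgf7, Pdgfc and Pdgfd, whose ureters all lie to the right of 0.

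The PDGF system held the most calls. Pdgfc, which encodes a PDGF chain secreted with a CUB domain that proteases must remove, was bright on every array. Its brightest probe set, 1449351_s_at, read 18158, 21013 and 27970.3 in ureters 1, 2 and 3 and 6861 in the reference. Every ureter was above the reference, and the difference was 1.68 ± 0.29 (3.21-fold, limma adjusted p = 0.0293). A second Pdgfc probe set, 1419123_a_at, read 14406, 20862 and 21583 against 4705, and was called as well (1.98 ± 0.30, 3.96-fold, adjusted p = 0.0223). Both probe sets of Pdgfc therefore gave the same direction and a similar size.

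Pdgfd encodes the related chain PDGF-D, also released with a CUB domain. At its brightest probe set, 1456532_at, it read 4819, 4466 and 5118 in the ureters and 1384 in the reference. The ureters were close together, 1.15-fold apart at most, and the difference was 1.78 ± 0.32 (3.44-fold, limma adjusted p = 0.0317). The dimmer probe set 1426319_at read 552, 845 and 761 against 418, with all ureters above the reference but no call (0.74 ± 0.46, adjusted p = 0.386). The classical chains Pdgfa and Pdgfb, which need no such removal, had smaller estimates and were not called. Pdgfa read 5039, 3748 and 5294 against 4518, with the reference inside the ureters' range (0.04, 95% interval -0.79 to 0.87). Pdgfb, the chain that endothelium uses to recruit pericytes, read 499.9, 297 and 607 against 303 (0.55, 95% interval -0.82 to 1.92). Under the reported scaling, these intervals leave room for a difference of the size seen for Pdgfc in Pdgfb, and not in Pdgfa. The Pdgfa estimate moved with the scaling, to 0.87 ± 0.69 with median-centred arrays, where Pdgfc was at 2.51. Whether Pdgfa and Pdgfc differ from each other was not tested.

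The receptor gene Pdgfra, a mark of fibroblasts and other mesenchymal cells, gave a result that depended on the probe set. At its brightest probe set, 1421917_at, it read 26672, 30311 and 24712 in the ureters and 19201 in the reference (0.50 ± 0.20, adjusted p = 0.199). At 1438946_at it read 4081, 4376 and 6162 against 509, and this probe set was called higher (3.21 ± 0.39, 9.22-fold, adjusted p = 0.0138). The third, 1421916_at, read 598, 1273 and 515 against 233 and was not called (1.61 ± 0.62, adjusted p = 0.184). All ureters lay above the reference at all 3 probe sets, whereas the size of the difference ranged from 1.41-fold to 9.22-fold. Which transcripts each probe set detects was not examined. Counting a gene as called when any probe set was, a choice made after the values were seen, gave 4 of the genes as higher, where 4.23% of all genes were.

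Among the secreted FGFs, Fgf7 (keratinocyte growth factor), a mesenchymal factor for epithelium, was the one called. At its brightest probe set, 1438405_at, it read 5535, 2958 and 3909.7 in ureters 1, 2 and 3 and 636 in the reference. The lowest ureter was still far above the reference, and the difference was 2.63 ± 0.45 (6.19-fold, limma adjusted p = 0.0284). Its other probe set, 1422243_at, was dim, with 177, 175 and 211 against 96.4, where the reference and ureter 2 were below background. With the reference set at its background level and ureter 2 kept at its own value, the ureters were 1.43-fold higher there. This probe set was not called (limma adjusted p = 0.455), and its 95% interval of -0.655 to 2.41 includes no difference. Fgf10, the close relative of Fgf7 with the same epithelial receptor, had 591, 368 and 443 against 319.7. All ureters of Fgf10 lay above the reference, yet the difference did not pass (0.51 ± 0.50, adjusted p = 0.594), with a 95% interval of -0.70 to 1.71 and a value of -0.078 under the deposited scaling. Whether Fgf7 and Fgf10 differ from each other was not tested.

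**Figure D2:**
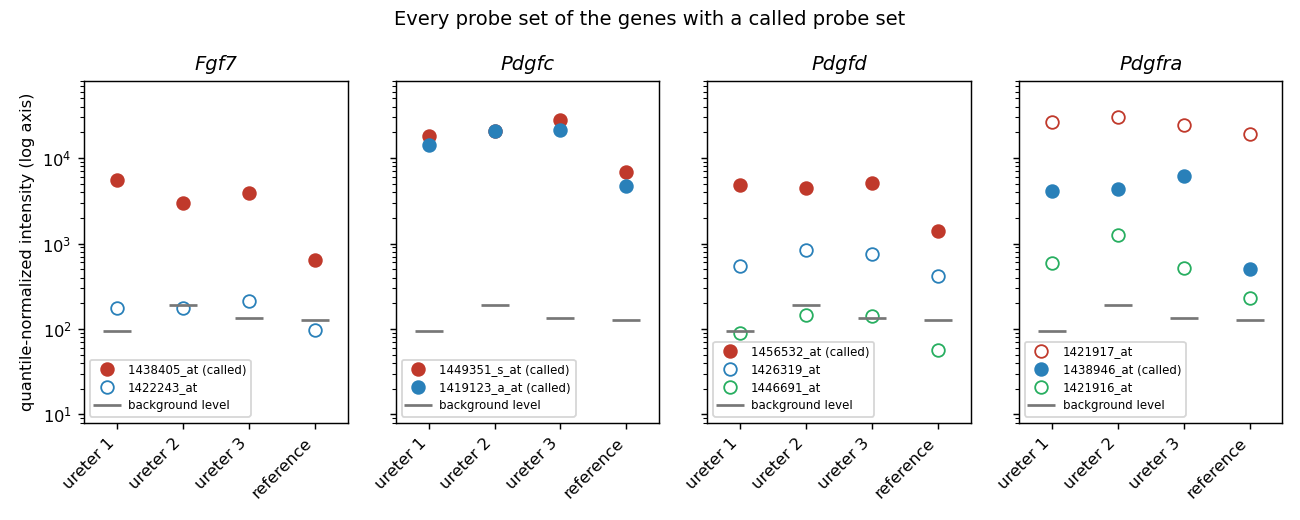
Normalized intensity (log axis) on the 3 ureter arrays and the reference array for every probe set of Fgf7, Pdgfc, Pdgfd and Pdgfra, with filled circles for called probe sets and grey dashes for each array's background level. The 5 called probe sets lie above background on all arrays, and the steepest drop to the reference is that of Pdgfra probe set 1438946_at, from at least 4081 to 509.

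To show the start regions of the 4 genes with a called probe set, their promoters are given from RefSeq (GRCm38.p6), 250 bases before to 50 after the annotated start, 5′ to 3′ on the gene's strand. For genes with several starts the most upstream was used, and each of these genes had 1. Capitals mark matches, on either strand, to the letters TATAAA of the TATA box, CCAAT of the box so named, GGGCGG of the GC box, TGANTCA of the AP-1 site, AGGTGT of a T-box core and GGGTGGTC of a GLI core, and to the CArG box bound by serum response factor, a match that reads the same on both strands counting once. Fgf7 lies at chr2:126034408-126034707 (+), Pdgfc at chr3:81036166-81036465 (+), Pdgfd at chr9:6168236-6168535 (+) and Pdgfra at chr5:75152001-75152300 (+).
Fgf7: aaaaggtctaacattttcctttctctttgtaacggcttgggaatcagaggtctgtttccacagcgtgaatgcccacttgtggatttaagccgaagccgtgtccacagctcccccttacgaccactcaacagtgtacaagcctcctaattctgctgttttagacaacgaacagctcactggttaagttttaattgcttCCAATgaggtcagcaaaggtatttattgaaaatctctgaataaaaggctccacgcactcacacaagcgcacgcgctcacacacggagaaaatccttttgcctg
Pdgfc: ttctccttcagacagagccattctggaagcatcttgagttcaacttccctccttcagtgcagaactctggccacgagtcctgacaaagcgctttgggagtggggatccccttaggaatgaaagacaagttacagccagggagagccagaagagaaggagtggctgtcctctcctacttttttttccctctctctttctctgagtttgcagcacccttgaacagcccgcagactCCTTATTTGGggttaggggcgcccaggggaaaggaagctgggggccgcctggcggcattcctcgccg
Pdgfd: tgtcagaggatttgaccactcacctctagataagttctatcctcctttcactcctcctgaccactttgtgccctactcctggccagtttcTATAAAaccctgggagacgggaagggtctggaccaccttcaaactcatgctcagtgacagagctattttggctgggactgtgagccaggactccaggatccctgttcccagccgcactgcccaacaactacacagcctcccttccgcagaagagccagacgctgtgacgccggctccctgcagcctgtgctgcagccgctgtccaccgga
Pdgfra: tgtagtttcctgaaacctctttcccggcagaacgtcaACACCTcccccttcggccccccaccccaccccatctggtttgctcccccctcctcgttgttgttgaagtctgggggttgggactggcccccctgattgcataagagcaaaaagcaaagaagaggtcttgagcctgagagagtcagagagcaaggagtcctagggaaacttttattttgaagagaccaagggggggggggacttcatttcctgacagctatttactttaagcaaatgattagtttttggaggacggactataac

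No motif was shared by the 4 promoters. That of Fgf7 held a CCAAT box (38% of 27025 promoters), that of Pdgfc a CArG box (1.59%), that of Pdgfd a TATA box (14.2%) and that of Pdgfra a T-box core (13.9%). The CArG box of Pdgfc began 17 bases before the start and was the one match to this motif among the 28 genes of the set with a promoter in the table, whereas the TATA box of Pdgfd began 160 bases before the start. The GC box was found in 13 of the 28 promoters (46.4%, beside 35.9% of all) and in none of the 4 shown. Median GC content was 59.8% over the 28 and 52.7% over all promoters, and the 4 shown had 45.7% (Fgf7), 55% (Pdgfc), 56.7% (Pdgfd) and 51% (Pdgfra). These matches describe letters only.

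The other FGF ligands were dim or not called. Fgf1, a ligand without a signal peptide that binds all FGF receptors, read 1390.5, 479 and 660.1 against 508 at its brightest probe set, so the groups overlapped (0.57 ± 0.65, adjusted p = 0.651). At its next probe set, 1423136_at, Fgf1 read 1120.1, 636 and 863 against 258, all above the reference, without a call (1.68 ± 0.49, adjusted p = 0.105). Fgf9, made by several epithelia and mesothelia, read 672, 1007 and 480.3 against 879, with the reference inside the ureters' range. Fgf18 read 90.2, 487 and 137 against 49.3, and ureter 1 and the reference lay below background. Fgf2, Fgf8 and Fgf20 lay below background on every array, at most at 54.4 (Fgf20, ureter 1), so no level is given for them. Fgf13 encodes an intracellular member that binds sodium channels rather than receptors and is abundant in neurons. It read 1055, 414 and 1286 against 2202, all ureters being below the reference, and was not called (-1.40 ± 0.68, adjusted p = 0.276).

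None of the FGF receptor genes was called. Fgfr2, the receptor for Fgf7 and Fgf10, read 7192, 6010.1 and 5169 in the ureters and 4467 in the reference at its brightest probe set (0.44 ± 0.32, adjusted p = 0.460). A dimmer Fgfr2 probe set, 1420847_a_at, read 299, 746 and 408 against 177, again with all ureters above the reference (1.29 ± 0.63, adjusted p = 0.281). Probe sets were not assigned to the epithelial and mesenchymal splice forms of the receptor. Fgfr1, the mesenchymal receptor, read 1223, 1306 and 1499.8 against 997 (0.42, 95% interval -0.52 to 1.36). Fgfr3 read 3973, 2504 and 3537 against 2713, with the reference inside the ureters' range (0.27, 95% interval -0.68 to 1.23). Fgfr4, known from liver and muscle precursors, was the receptor on the lower side, with 295, 448 and 522 against 799 (-0.94, 95% interval -2.18 to 0.30).

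The EGF-family ligands gave no call in either direction, and their median log2 difference was -0.26 over 5 tested genes. Tgfa, a ligand of epithelia, read 1623, 670.3 and 1149 against 805, and Btc, the betacellulin gene, 1534, 1138 and 1063 against 1474. In both genes the reference lay inside the ureters' range. Hbegf, the heparin-binding ligand, read 717, 561 and 857 against 618 (0.18, 95% interval -0.92 to 1.28). Ereg, the epiregulin gene, was at or below background in all ureters (87.6, 148 and 41.6) and read 447 in the reference. It was thus at least 3.14-fold lower in the ureters, without a call (adjusted p = 0.178). Egf, the epidermal growth factor gene, read 671, 112 and 203 against 353, with ureter 2 below background, so that ureter 1 was at least 3.41-fold above ureter 2. Nrg1, the neuregulin gene, exceeded background on 1 of the 4 arrays (138 in ureter 1).

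Their receptors were likewise not called. Erbb2, the receptor that has no ligand of its own and pairs with the others, read 823, 997 and 1115 in the ureters against 496. All ureters exceeded the reference, with a difference of 0.95 ± 0.42 (1.93-fold, limma adjusted p = 0.234) and a 95% interval of -0.07 to 1.97. Egfr read 2219, 2885 and 2793 against 3230.3 at its brightest probe set and 2447, 2351 and 2814 against 2194 at the next, so the differences had opposite signs (-0.30 and 0.20), and with median-centred arrays the first was 0.47. Erbb4 lay below background on every array, reading 55.7, 62.8 and 46.3 against 105.

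Hgf and its receptor gene Met were both on the higher side without a call. Hgf, a mesenchymal factor for epithelia, read 257, 1098 and 564 in ureters 1, 2 and 3 and 229.7 in the reference. Its ureters were 4.13-fold apart, ureter 1 was close to the reference, and the difference was 1.20 ± 0.81 (adjusted p = 0.424). Met read 6911, 7789.7 and 5875 against 5042, all above the reference (0.43, 95% interval -0.30 to 1.17). Vegfa, the main growth factor of endothelium, had probe sets on opposite sides. At its brightest it read 640.0, 1559 and 876 against 1422 (-0.57 ± 0.57, adjusted p = 0.603), and at 1420909_at 729, 581 and 652 against 255 (1.31 ± 0.44, adjusted p = 0.140).

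Of the 6 feedback inhibitors none passed. Spry2, a Sprouty inhibitor induced by FGF and EGF signalling, came closest, with 1015, 1039 and 1153 in the ureters and 365 in the reference. The ureters were only 1.13-fold apart and well above the reference, yet 1.52 ± 0.40 (2.86-fold) gave an adjusted p of 0.0831 in limma's test. With gene means over probe sets, a fit that adjusts over 13721 genes rather than 27022 probe sets, the same values gave 0.0380. Spry4 read 289, 485 and 429.7 against 338 at its brightest probe set, and 761, 437 and 622 against 180.2 at 1445669_at (1.65 ± 0.51, adjusted p = 0.121). Errfi1, the inhibitor of EGFR also called Mig6, was on the lower side, with 13389.5, 16882 and 15868 against 26436. Every ureter was below the reference (-0.79 ± 0.23, adjusted p = 0.102), although with median-centred arrays the difference was -0.034. Dusp6, the ERK phosphatase that marks FGF signalling in many embryonic tissues, read 12863, 17575 and 10396 against 16151, with the reference inside the ureters' range (-0.28, 95% interval -1.08 to 0.52). Spred1 (6018, 9196 and 5921 against 6062) also overlapped, while Spred2 (8915, 5901 and 8474 against 5117) lay above the reference in all ureters (0.58 ± 0.34, adjusted p = 0.361). The family's inhibitors were therefore not all on one side, with a median of 0.20.

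Probe sets of one gene often disagreed in direction or size. Of 19 genes with several tested probe sets, 7 had log2 differences on both sides of 0: Fgfr4, Tgfa, Egfr, Spry4, Spred1, Errfi1 and Vegfa. None of these had a called probe set in either direction. Over the 62 tested probe sets, 5 were called higher and 0 lower, beside 2.68% and 3.49% of all probe sets. Those 5 were 2 of Pdgfc and 1 each of Fgf7, Pdgfd and Pdgfra. Egfr, with 6 tested probe sets, ranged from 0.20 at 1424932_at to -2.06 at 1457563_at (367, 70.6 and 145 against 698), where ureter 2 was below background.

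**Figure D3:**
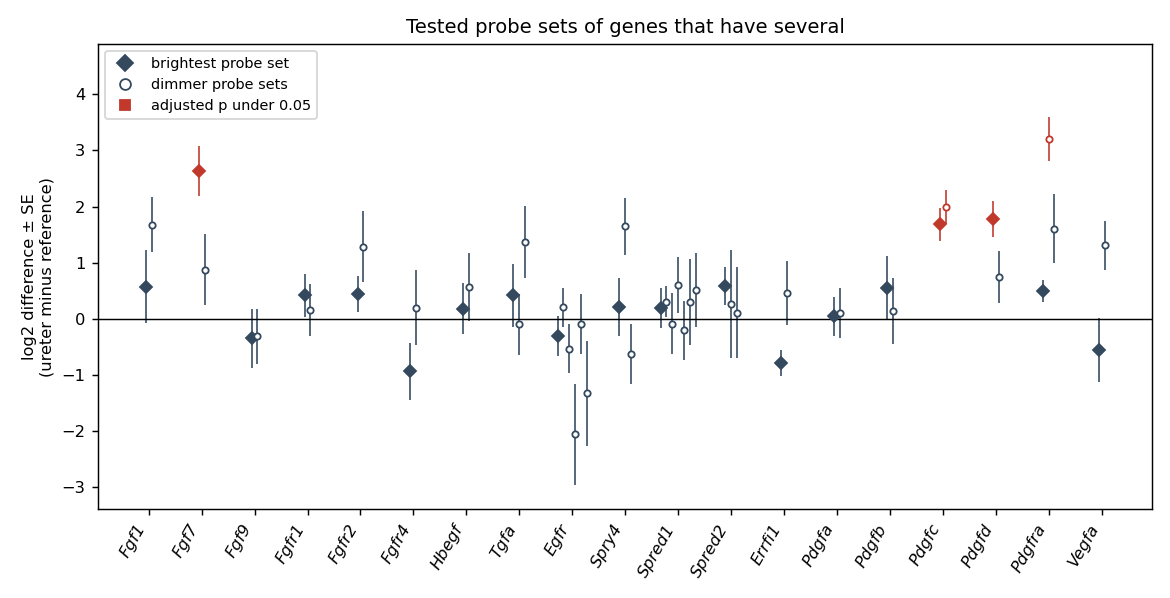
Log2 difference, ureter minus reference, with its SE (y axis) for each tested probe set of the 19 genes that have several (x axis), diamonds being the brightest probe set and open circles the dimmer ones. The 5 called probe sets are red, and those of Pdgfra run from 0.50 to 3.21.

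Of the 28 tested genes above background in all ureters, 7 differed by over 2-fold between ureters (25% of them, where 17% of all such genes did): Fgf1, Fgf9, Fgf13, Tgfa, Hgf, Pdgfb and Vegfa. Hgf and Vegfa were lowest in ureter 1, next in ureter 3 and highest in ureter 2, the order also of the summed nephron markers (4472, 17400 and 25440) and of 8 of the 13 taken singly. This order was held by 16.7% of the 30 genes and 16.1% of all genes, and the other tested Vegfa probe set, 1420909_at, ran the opposite way (729, 581 and 652 in ureters 1, 2 and 3). Array measures had this order too: the background level was 94.2, 134 and 188 in ureters 1, 3 and 2. The deposited 18S ribosomal RNA signal was 41611, 55872 and 96298 in ureters 1, 3 and 2. The parts of kidney RNA and of differences between arrays in the Hgf and Vegfa values were not tested. Egf, a known product of the distal nephron, was highest in ureter 1 (671). Of the 13 nephron markers 10 were lowest in that ureter, Umod (55.6) and Slc12a1 (50.2) being below background there, and 2 were highest in it. The source of the Egf signal was not tested. Fgf1 and Tgfa were likewise highest in ureter 1 and lowest in ureter 2, an order shared by 7 of the 30 genes (23.3%) and by 26.4% of all genes. The summed urothelial markers also ran in this order, with 379300 in ureter 1, 278900 in ureter 3 and 248300 in ureter 2, as did 12 of the 16 taken singly, and their part in these values was not tested. Fgf7, called above, was also highest in ureter 1 (5535) and lowest in ureter 2 (2958), whereas Pdgfc was highest in ureter 3. Fgf13 was lowest in ureter 2 (414) and over 2-fold higher in the other ureters.

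**Figure D4:**
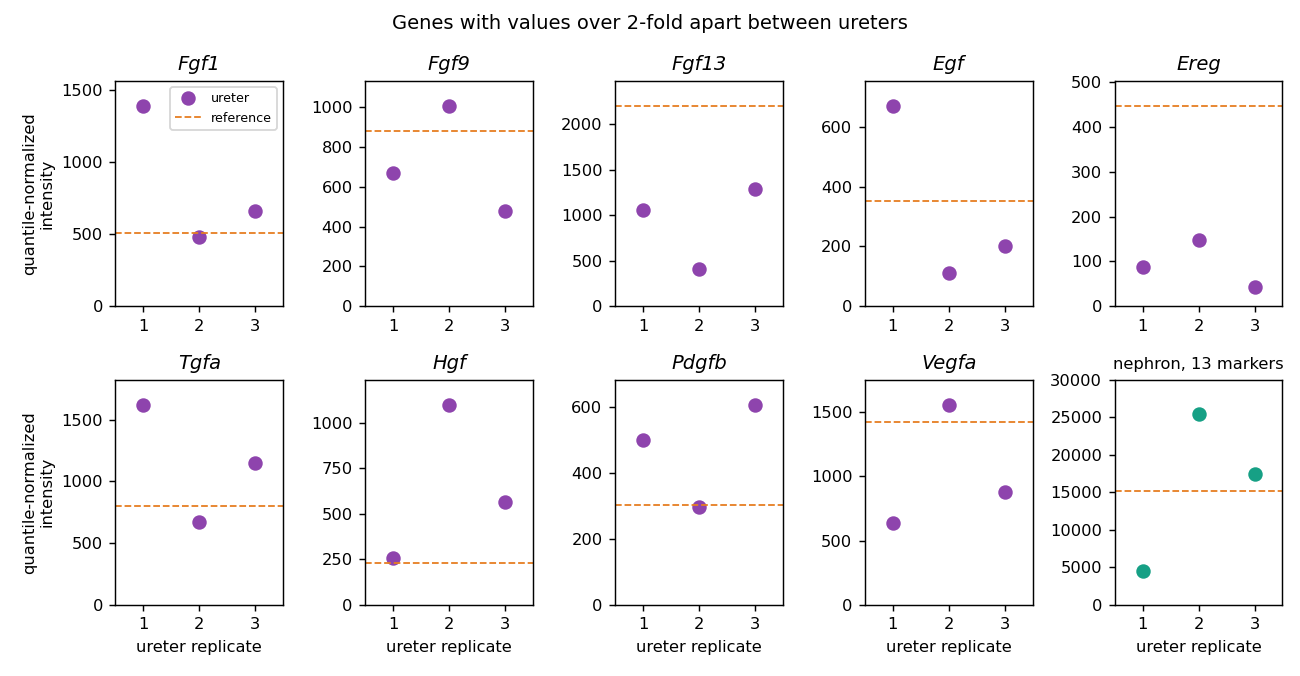
Normalized intensity (y axis, from 0) in ureter replicates 1, 2 and 3 (x axis) of the 9 tested genes whose values were over 2-fold apart between ureters, background or not, and the sum of 13 nephron markers in the last panel, with the reference as a dashed line. At their brightest probe sets Hgf and Vegfa peak in ureter 2 as the nephron sum does, and Egf peaks in ureter 1; the ureters of Ereg and ureter 2 of Egf are below background.

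Genes elsewhere in these pathways, from lists of 121 genes, gave 97 tested, of which 3 were higher, 6 lower and 88 not called, with a median difference of 0.13. These were 3.09% higher and 6.19% lower, near the 2.94% and 4.77% of all genes. Among 16 tested FGF ligands, receptors and cofactors 2 were lower and 0 higher, with a median of -0.23. Fgfrl1, an FGF receptor without a kinase domain, read 3593, 3138 and 3973 against 12290 (-1.79 ± 0.31, adjusted p = 0.0298, called at 1 of 2 probe sets), and Klb, the coreceptor for endocrine FGFs in liver and fat, was at background in all ureters and at least 20.9-fold lower (adjusted p = 0.0460). Among 9 further EGF-system genes the sheddase gene Adam10 was higher, with 33163, 33128 and 33478 against 17191 (0.95 ± 0.17, adjusted p = 0.0304, called at 1 of 3 probe sets). Of 18 other PDGF, VEGF and HGF genes, Vegfd, a lymphatic growth factor gene, was higher at all 3 of its tested probe sets (2.26 ± 0.31 at the brightest, 4.81-fold, adjusted p = 0.0173). Hgfac, the protease that activates HGF, and Mst1, the HGF-like ligand, both of liver, were lower (adjusted p = 0.0346 and 0.0170), each above background in ureters 1 and 3 and not in ureter 2. With ureter 2 set at its background level, Hgfac was 6.72-fold and Mst1 14.8-fold lower than in the reference. Liver markers were low as well, all 5 measured being called lower, with 3 of them, Apoa1, Ahsg and Fgb, at background in every ureter. Pdgfrb, the receptor for PDGF-D, read 3769.6, 10803 and 7639 against 3149 and was not called (1.10 ± 0.58, adjusted p = 0.312). Its ureters ran in the order of the summed nephron markers, which 16.1% of all genes and 20.7% of those over 2-fold apart also held. The source of this order in Pdgfrb was not tested.

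Downstream of the receptors, of 21 Ras-MAPK and PI3K genes 20 were not called, the median being -0.0038, and Cblb, a ubiquitin ligase that limits receptor signalling, was lower (-4.68 ± 0.71, adjusted p = 0.0218), though at 1 of its 3 tested probe sets. Among 15 ERK-induced genes and further inhibitors 1 was lower, Egr3, an immediate early gene used by muscle spindles and brain (adjusted p = 0.0222), above background in ureter 3 alone. With the other ureters set at their background levels it was 28.1-fold lower than in the reference. The Sprouty gene Spry1 (0.27) and the FGF target Etv5 (0.69) did not pass. Of 18 heparan sulphate genes, whose products hold FGFs at the cell surface, 1 was higher: Sulf1, which removes sulphate from these chains, with 30084, 23863 and 23992 against 6826 (1.92 ± 0.23, 3.78-fold, adjusted p = 0.0137, called at 2 of 3 probe sets).

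The calls were sensitive to single choices. Without ureter replicate 3, limma called 0 of the genes in either direction and 317 probe sets in all, 48 of them higher. Adjusted p was then 0.124 for Fgf7, 0.106 for Pdgfc, 0.166 for Pdgfd and 0.0701 for the called probe set of Pdgfra, with differences of 2.59, 1.52, 1.71 and 2.96. Fitting the variance without an intensity trend also left 0 calls among the brightest probe sets, with adjusted p of 0.0658, 0.110 and 0.0720 for Fgf7, Pdgfc and Pdgfd, while Pdgfra's probe set kept its call (0.0368). Pdgfd further lost its call with median-centred arrays (0.0593), without ureter replicate 1 (0.0502) and with the mean of its probe sets (1.26, adjusted p = 0.0577). Pdgfc lost its own with no filter on dim probe sets (0.0554). Under the mean of probe sets Fgf7 fell to 1.75 and kept its call (0.0331), and Pdgfra gained one (1.77, adjusted p = 0.0171). The sign of these 4 genes was the same in all alternatives run.

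**Figure D5:**
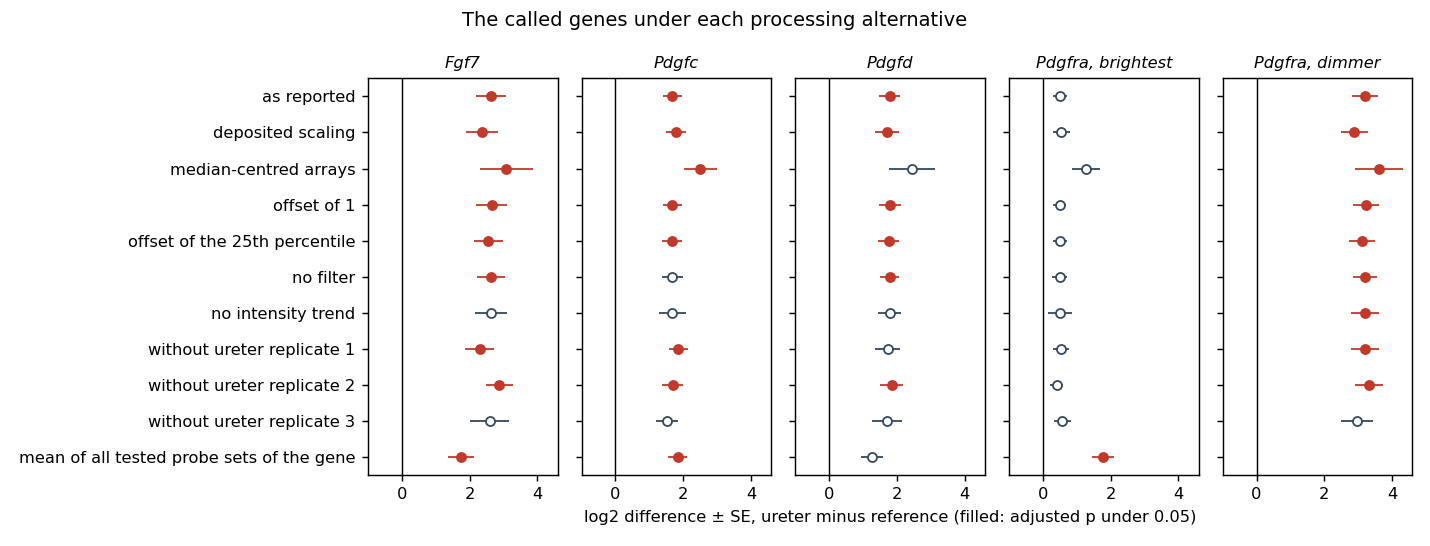
Log2 difference, ureter minus reference, with its SE (x axis) for Fgf7, Pdgfc, Pdgfd and 2 probe sets of Pdgfra under the reported settings and each alternative (y axis), filled where the adjusted p was under 0.05. All estimates lie above 0, and without ureter replicate 3 none is filled.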

How the data were processed

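The authors deposited a linear intensity for each probe set of each array. GCOS was used, per the submitters' processing notes, with settings not given in the sources used here. Each array's mean, trimmed by 2% at each end, was 1500.01, so the deposited values had been scaled. Median log2 values still spanned 1.05, and arrays were quantile normalized. Of 45101 probe sets, 64 controls and the 40% with the lowest mean of both group means were left out. The scale was log2(intensity + 12.23), where 12.23 is the 10th percentile of all deposited values; it understates changes of dim probe sets. limma 3.58.1 in R 4.3.3 gave two-sided tests with its trend option on, and p was adjusted by Benjamini-Hochberg, with a threshold of 0.05; 2 residual degrees of freedom come from the ureters. Symbols came from GEO's platform annotation: 34945 probe sets had 1, 932 several and 9160 none, and only the first were named. An exact permutation of 4 arrays cannot go below p = 0.25. The fit was run on simulated data that gave the reference the noise of the ureters. Such data cannot test whether the reference varies as the ureters do. "At least" folds set the dimmer group at its background level. Named genes are all members, and in each pathway list up to 3 genes per direction with the largest called change; Pdgfrb, Spry1 and Etv5, not called, were added outside this rule after their values were seen. Genes and lists were chosen with earlier results of these data known. Alternatives changed scaling, offset, filter, variance trend, probe set rule and replicates. The number of arrays limits the precision.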

Additional observations from a re-analysis of the deposited data

How the results depend on the processing

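No paired analysis was possible because the reference has 1 array. Over all probe sets 725 were higher and 942 lower; higher calls were 444 with the deposited scaling, 401 with no filter and 269 with no intensity trend, and leaving out 1 ureter gave from 48 to 928 higher and from 269 to 1207 lower. Genes of the set called higher numbered 3, against 0 with no intensity trend and 2 each with median-centred arrays and with no filter. With the mean of probe sets they numbered 4, namely Fgf7, Pdgfc, Pdgfra and Spry2, without Pdgfd. With 1 ureter left out they numbered from 0 to 3, and 0 were lower in every setting run. The deposited scaling put 33.5% of calls on the higher side, in place of 43.5%, and moved the median of all probe sets from 0.11 to -0.13; median-centred arrays moved it to 0.60. Some uncalled genes changed sign, their reported differences lying between -0.57 (Vegfa) and 0.55 (Pdgfb). With the deposited scaling these were Fgf10 (-0.078), Hbegf (-0.21), Spry4 (-0.44) and Pdgfb (-0.038). With median-centred arrays they were Fgf9 (0.031), Btc (0.34), Egfr (0.47) and Dusp6 (0.56), and with the mean of probe sets Vegfa (0.37). Over the fits without 1 ureter they were Egf (from -1.13 to 0.070), Spred1 (from -0.022 to 0.29) and Pdgfa (from -0.058 to 0.20). The cause of these changes was not tested. Dim probe sets, 25 of the 87, gave no test, so differences in Fgf2, Fgf8, Fgf20 and Erbb4 were not detectable here.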
